A study of Mus musculus with 6 samples.

Results

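The genes described here are 10 imprinted genes with roles in growth control: H19, Meg3, Peg3, Mest, Grb10, Cdkn1c, Ndn, Plagl1, Peg10 and Sgce. They were chosen by symbol, and all 10 were found among the 13595 genes of the deposited table. RNA was sequenced from primary CD31-positive cells, a surface selection for endothelium, taken from livers of C57BL6/J mice aged 4 weeks and cultured. The study has 1 contrast, with 3 libraries labelled male and 3 labelled female, each numbered replicate 4, 5 and 6. Every library received the same treatment, 100 µM indoxyl sulfate, a uremic solute that activates the aryl hydrocarbon receptor (AHR), together with 6 hours of hypoxia and nutrient deprivation. Cells given DMSO were not analysed here, so no value describes the effect of the treatment. Below, male and female libraries are those so labelled. The labels do not say whether the replicates are separate animals or cultures, so p-values measure the spread between these libraries only, and a batch that followed the label cannot be told apart from sex.

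An imprinted gene is read mainly from the copy inherited from a particular parent, because the other copy carries or lacks DNA methylation at a control region set in the germline. Such genes lie in clusters that share a control region, and many act in the embryo and placenta, where maternally expressed genes tend to restrain growth and paternally expressed genes tend to promote it. Their expression usually declines after birth in liver and other organs, and persists for several of them in stromal and progenitor cells.

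Values are normalized read counts, that is, read counts that the authors divided by a factor for each library. Library totals were 27811890, 28530368 and 31189363 reads in male replicates 4, 5 and 6, and 25329421, 23985846 and 22303270 in the female ones. Every male library was thus deeper than every female library. Xist, the RNA that coats the inactive X chromosome, was at 0.323 ± 0.176 (SD, n = 3) in the libraries labelled male and 286 ± 46.7 (SD, n = 3) in those labelled female. Transcripts of the Y-linked genes Ddx3y, Uty, Kdm5d and Eif2s3y were nevertheless read in every library labelled female, at 17.6 to 57.7, against 23.7 to 76.3 in those labelled male. The groups overlapped for Ddx3y (57.0 ± 16.8 against 52.1 ± 4.93) and Uty (26.9 ± 4.41 against 24.1 ± 3.12), which were not called, whereas Kdm5d (34.8 ± 3.61 against 19.1 ± 1.61) and Eif2s3y (58.1 ± 2.97 against 29.8 ± 0.411, SD, n = 3) were called lower. The presence of these transcripts goes against the female label, and every direction below is between labels. Male replicate 4 stood apart within its group: a chi-square statistic per gene of 43.6 and 45.4 separated it from male replicates 5 and 6, which differed from each other by 5.98.

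Markers of cell types differed between the labels as well, in a table where 69.3% of all tested genes differed (limma, adjusted p under 0.05), 34.6% as higher and 34.6% as lower under the female label. Of 14 tested endothelial markers, 11 were lower and 2 higher, and their summed value was 2393 to 2512 in the male and 1278 to 1341 in the female libraries. Pecam1, which encodes CD31, was at 407 ± 16.2 (SD, n = 3) against 73.9 ± 0.540 (SD, n = 3), and Cdh5, the endothelial cadherin gene, at 924 ± 5.58 against 387 ± 11.9 (SD, n = 3). The 2 higher ones went the other way, with Ptprb, a phosphatase gene, at 4.71 ± 0.628 against 62.3 ± 4.11 and Eng, the endoglin gene, at 313 ± 21.3 against 415 ± 13.9 (SD, n = 3). Of 12 tested stellate cell and fibroblast markers, 8 were lower and 3 higher, with log2 differences of -0.68 for the collagen gene Col1a1 and -1.61 for the receptor gene Pdgfra. Their sum, 2890 to 3724 in the male and 3400 to 4059 in the female libraries, hides opposite differences: Pdgfrb was at 133 ± 3.76 against 14.3 ± 1.17, and the contractile gene Acta2 at 78.6 ± 47.9 against 1694 ± 187 (SD, n = 3). Of 6 tested mesothelial markers, 5 were higher and 1 was lower, but 4 of the 5 (Upk3b, Upk1b, Wt1 and Gpm6a) passed the filter on low values only through the female libraries and could only come out higher. The mesothelial sum, 425 to 520 in the male and 501 to 507 in the female libraries, also hides opposite differences, with Krt19 at 461 ± 47.7 against 116 ± 20.2 and Msln at 19.4 ± 1.97 against 332 ± 29.6 (SD, n = 3). Ptprb, Eng, Acta2, Krt19 and Msln were singled out after their values were seen. Of the endothelial and stellate markers called lower, Vwf, Robo4 and Lum passed the filter only through the male libraries. Macrophage markers summed to 7.51 to 9.99 in the male and 13.2 to 15.7 in the female libraries, with 2 of 2 tested genes higher. All 7 hepatocyte markers were below the filter (kept: genes reaching 1 in 3 or more libraries), with a sum of 0.995 to 1.33 in the male and 0.623 to 0.902 in the female libraries. Alb (albumin) was at 0.584 ± 0.0145 against 0.0435 ± 0.0416 (SD, n = 3), and Ttr was also lower, at a mean of 0.164 against 0. Afp went the other way, at 0.0873 ± 0.0399 against 0.466 ± 0.193 (SD, n = 3). Serpina1a was level, at 0.102 ± 0.0442 against 0.105 ± 0.0329 (SD, n = 3), and Cyp3a11 was at 0 in every library. Ttr, Afp and Serpina1a were also singled out after their values were seen. The part of these cell type markers in the differences of the imprinted genes was not tested, and in bulk RNA fewer cells of a type cannot be told apart from less RNA per cell.

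All 10 imprinted genes passed the filter and differed between the labels, with 5 higher and 5 lower under the female label (limma, Benjamini-Hochberg adjusted p under 0.05 over 12568 tested genes). The background is high: 69.3% of all tested genes passed the same threshold, 34.6% as higher and 34.6% as lower. A count test on the recovered reads (edgeR) also called all 10 genes, where it called 68.8% of the tested genes. The 3 values of the female libraries did not overlap the 3 of the male libraries for any of the 10, a separation seen in 74.1% of tested genes. The median log2 difference of the 10 was -0.04, against 0.01 over all tested genes, so the group as a whole had no common direction. Of the 4 genes usually read from the maternal copy (H19, Meg3, Grb10 and Cdkn1c), 2 were higher and 2 lower, and of the 6 usually read from the paternal copy, 3 were higher and 3 lower. The data do not distinguish the parental copies, so the imprint itself was not measured.

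**Figure D1:**
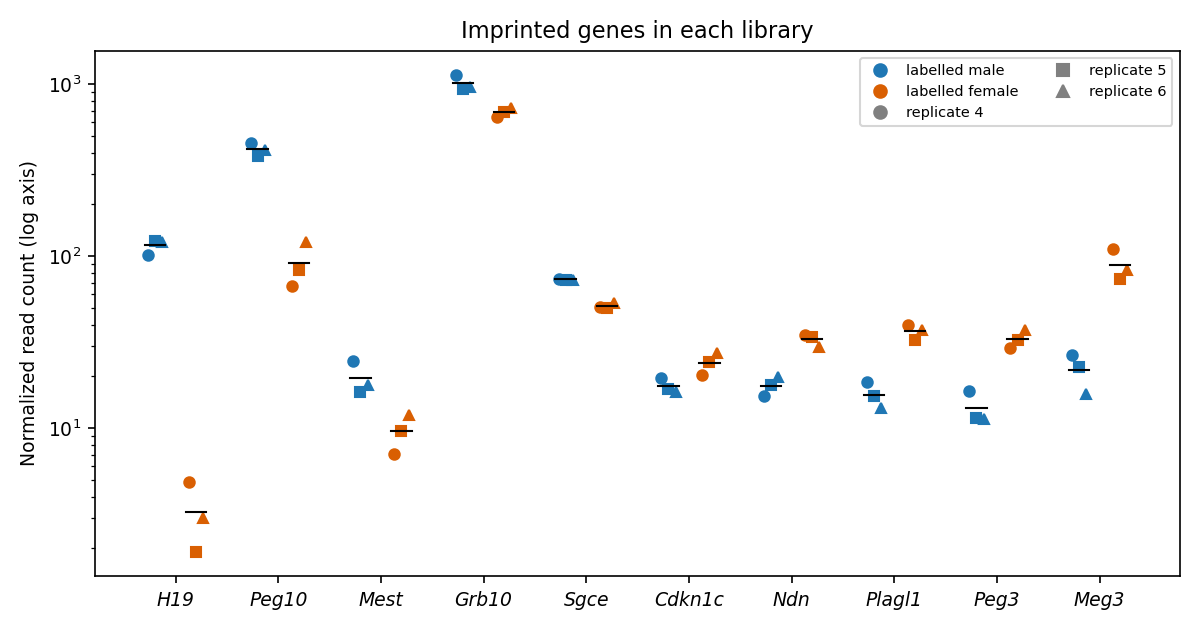
Normalized read count (log axis) of each imprinted gene in each library, ordered by the difference between labels; symbols mark replicates and black lines the group means. H19 runs from 102 to 123 in the libraries labelled male and from 1.90 to 4.86 in those labelled female, and for none of the 10 genes do the groups overlap.

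H19, a spliced and polyadenylated non-coding RNA of chromosome 7 that is abundant in fetal liver and restrains growth, showed the widest difference of the 10. Its values were 102, 123 and 121 in male replicates 4, 5 and 6, and 4.86, 1.90 and 2.99 in the female replicates of the same numbers. These female values rest on 117, 43 and 63 reads. The libraries labelled male were uniformly high, whereas the female libraries were low and spread further in proportion (coefficient of variation 46.0% against 10.1%). The female mean was 2.82% of the male mean (3.25 ± 1.49 against 115 ± 11.6, SD, n = 3), a log2 difference of -4.83 (SE 0.22, limma adjusted p 5.13e-07). Only 28 of the 12568 tested genes, H19 included, differed by as much in either direction. H19 is also the precursor of a microRNA, miR-675, whose mature forms are shown because some H19 transcripts hold them; microRNAs were not measured in these poly(A) libraries. The capitals mark the seed, bases 2 to 8, and both sequences are from RefSeq on the minus strand of chromosome 7 (GRCm38.p6, chr7:142577112-142577133 for the 5p form and chr7:142577078-142577099 for the 3p form). Each lies within 3 of the 7 H19 transcripts of GENCODE M21, and the value above is for the gene, not for these transcripts.
miR-675-5p: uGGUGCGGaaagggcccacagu
miR-675-3p: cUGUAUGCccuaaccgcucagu

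Igf2, the growth factor gene that shares the H19 control region and is usually read from the opposite parental copy, was read at low values. It was at 1.95, 2.63 and 2.26 in the male and 2.24, 1.46 and 0.427 in the female libraries, and the groups overlapped. Its log2 difference of -0.54 (SE 0.27, limma adjusted p 0.106) did not pass the threshold. Without female replicate 4 it was -0.80 and passed (limma adjusted p 0.0261), and without female replicate 6 it was -0.21 and did not (limma adjusted p 0.328).

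Meg3, a non-coding RNA of chromosome 12 with growth-restraining activity, moved the other way from H19. Its values were 26.7, 22.6 and 15.9 in the male and 110, 74.1 and 83.4 in the female libraries. The lowest female library was well above the highest male one. The female mean was 4.11-fold the male mean (89.3 ± 18.8 against 21.7 ± 5.46, SD, n = 3), a log2 difference of 2.001 (SE 0.20, limma adjusted p 3.55e-05).

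The other maternally expressed RNAs of the Meg3 cluster were read at higher values in the female libraries too. Rian, which carries small nucleolar RNAs in its introns, was at 63.2 ± 6.18 (SD, n = 3) against 142 ± 5.79 (SD, n = 3), a log2 difference of 1.16 (SE 0.08, limma adjusted p 4.55e-06). Mirg, a microRNA host, was below the filter at 0.415, 0.305 and 0.247 in the male and 1.49, 0.796 and 1.57 in the female libraries, and was not tested. Dlk1, the paternally expressed Notch-like ligand of the cluster, was lower, at 1.59 ± 0.107 against 0.593 ± 0.282 (SD, n = 3), with a log2 difference of -0.72 (SE 0.15, limma adjusted p 0.00248). Dlk1 passed the filter only through the male libraries, and with edgeR its difference was -1.40. Per unit of Rian, Meg3 was at 0.382, 0.392 and 0.256 in the male and 0.744, 0.526 and 0.610 in the female libraries. This ratio was chosen after the values were seen. Its two-sided exact permutation p was 0.1, the smallest possible (adjusted 0.12).

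The promoters of Meg3 and Peg3, both higher in the female libraries, are shown because they share a motif. For Meg3 these are the 250 bases before the upstream of 2 RefSeq starts (GRCm38.p6, chr12:109540746-109540995, plus strand), a start whose first transcribed bases are in no GENCODE M21 transcript of the gene. Capitals mark the cAMP response element TGACGTCA, searched on both strands, which ends 49 bases before the start. The motif was picked after the sequence was read.
Meg3 promoter: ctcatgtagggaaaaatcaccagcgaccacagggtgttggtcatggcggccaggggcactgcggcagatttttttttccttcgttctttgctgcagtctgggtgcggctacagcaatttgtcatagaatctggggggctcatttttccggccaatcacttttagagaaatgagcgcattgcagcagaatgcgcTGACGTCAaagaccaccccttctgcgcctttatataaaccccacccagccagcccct
The same element lies before the RefSeq start of Peg3 (GRCm38.p6, chr7:6730420-6730669, minus strand), where it ends 170 bases before the start.
Peg3 promoter: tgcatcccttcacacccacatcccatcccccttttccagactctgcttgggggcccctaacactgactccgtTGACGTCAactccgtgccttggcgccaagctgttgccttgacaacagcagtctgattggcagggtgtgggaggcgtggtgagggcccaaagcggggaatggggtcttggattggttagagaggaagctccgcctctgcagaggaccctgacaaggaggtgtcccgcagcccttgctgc
Of 32851 windows of this length in the RefSeq table, 1.55% hold the element. RefSeq gave 10 windows for 6 of the 10 imprinted genes (Meg3, Peg3, Mest, Grb10, Ndn and Plagl1), and 2 of the 10 windows hold it. The other Meg3 window and those of Ndn and Plagl1, also higher in the female libraries, lack the element. Those of Mest and Grb10, both lower, lack it as well. A match of letters is a description and not evidence of binding. The 10 windows held 0 to 40 CG dinucleotides with a median of 9, against a median of 6 over all windows. The Mest windows starting at chr6:30737800 and chr6:30737803 are almost the same sequence, so the 10 windows are not all distinct.

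Peg3 encodes a large zinc-finger protein of chromosome 7 with roles in growth and in stem and stromal cells. It was at 16.5, 11.5 and 11.4 in the male and 29.1, 32.4 and 37.1 in the female libraries. Male replicate 4 was the highest of its group and still below every female library. The female mean was 2.51-fold the male mean (32.9 ± 4.02 against 13.1 ± 2.93, SD, n = 3), a log2 difference of 1.28 (SE 0.15, limma adjusted p 0.000110). The neighbours listed for its domain (Zim1, Usp29 and Zfp264) were not analysed here.

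Plagl1, also called Zac1, encodes a zinc-finger transcription factor of chromosome 10 that can halt the cell cycle and binds control regions of other imprinted genes. It was at 18.6, 15.3 and 13.03 in the male and 40.0, 32.8 and 37.2 in the female libraries. All female libraries lay above all male ones, with a mean 2.35-fold higher (36.7 ± 3.66 against 15.6 ± 2.79, SD, n = 3) and a log2 difference of 1.19 (SE 0.13, limma adjusted p 7.33e-05). H19 and Cdkn1c, which Plagl1 is known to regulate, differed between labels in opposite directions. Because every culture received an AHR ligand, the Plagl1 promoter is shown with the AHR core motif GCGTG, on either strand, in capitals (RefSeq, GRCm38.p6, chr10:13090582-13090831, plus strand).
Plagl1 promoter: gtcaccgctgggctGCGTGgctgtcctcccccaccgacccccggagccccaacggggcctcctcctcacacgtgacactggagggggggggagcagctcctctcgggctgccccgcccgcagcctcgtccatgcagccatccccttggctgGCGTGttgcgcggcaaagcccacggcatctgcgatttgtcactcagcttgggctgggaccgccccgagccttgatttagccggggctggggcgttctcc
The core occurs in 4 of the 10 windows, those of Peg3, Plagl1 and Ndn and the first of Grb10, against 28.2% of all windows. It is also a form of the hypoxia response core, whose other form, ACGTG, occurs in 16.6% of all windows and in 1 of the 10, that of Plagl1. Grb10 was lower and the other 3 genes were higher in the libraries labelled female. The first Grb10 window lies before a start whose first transcribed bases are in no GENCODE M21 transcript of the gene.

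Grb10 encodes an adaptor protein that binds insulin and IGF receptors and restrains growth outside the brain, where it is read from the maternal copy. It had the highest values of the group, at 1135, 933 and 964 in the male and 642, 689 and 723 in the female libraries. The lowest male value, 933, stood above the highest female one, 723. Grb10 in the female libraries averaged 67.8% of the male mean (685 ± 40.6 against 1011 ± 108, SD, n = 3), a log2 difference of -0.56 (SE 0.09, limma adjusted p 0.000608). Cobl, an actin nucleator beside Grb10 on chromosome 11, was in contrast among the most different genes of the table, at 2.40 ± 0.00210 against 150 ± 11.2 (SD, n = 3), a log2 difference of 5.47 (SE 0.08, limma adjusted p 4.74e-09). Ddc, the aromatic amino acid decarboxylase gene on the other side, was below the filter in all 6 libraries, at 0.0381 to 0.221.

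Cdkn1c encodes p57, a maternally expressed inhibitor of cyclin-dependent kinases. It was at 19.5, 17.01 and 16.2 in the male and 20.4, 24.1 and 27.4 in the female libraries. The lowest female library was only slightly above the highest male one. On average Cdkn1c in the female libraries was 1.37-fold the male mean (24.0 ± 3.54 against 17.6 ± 1.73, SD, n = 3), the smallest difference of the 10, with a log2 value of 0.42 (SE 0.12, limma adjusted p 0.0138). Without female replicate 6 it was 0.33 and no longer passed (limma adjusted p 0.0525).

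The Cdkn1c domain on chromosome 7 did not move as a block. Kcnq1ot1, the paternally expressed long RNA that silences the domain on its own copy, was at 65.7 ± 15.5 against 217 ± 15.3 (SD, n = 3), a log2 difference of 1.74 (SE 0.16, limma adjusted p 2.33e-05). Osbpl5, a lipid transfer protein gene, was higher with a log2 difference of 1.18, while Tssc4 (-0.40), Cd81 (-0.26), Nap1l4 (-0.32) and Ascl2 (-2.03) were lower. Ascl2, a placental transcription factor, was at 2.65 in male replicate 4 against 9.38 and 9.89 in the other male libraries, and at 0.663 to 1.04 in the female libraries, and its difference was -3.13 with edgeR. Slc22a18 did not pass (-0.11, limma adjusted p 0.515), and Kcnq1 was below the filter at 0.0415 to 0.249.

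Ndn encodes necdin, a growth-suppressing protein of the MAGE family read from the paternal copy on chromosome 7. It was at 15.3, 17.9 and 19.8 in the male and 34.7, 33.9 and 29.8 in the female libraries. Replicates of each label lay close together and the groups were well apart. Necdin transcript in the female libraries averaged 1.86-fold the male mean (32.8 ± 2.60 against 17.7 ± 2.22, SD, n = 3), a log2 difference of 0.86 (SE 0.11, limma adjusted p 0.000155).

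Of 4 other tested genes of the Ndn domain, which corresponds to the Prader-Willi and Angelman region, 3 were called higher and 1 was not called, where 34.6% of all tested genes were called higher. Ube3a, a ubiquitin ligase gene, was at 60.6 ± 6.86 against 95.6 ± 9.84 (SD, n = 3), a log2 difference of 0.65 (SE 0.10, limma adjusted p 0.000531), and Peg12 had a log2 difference of 0.93 (limma adjusted p 0.00145), which was 1.53 with edgeR. Snrpn and Snurf are read from a shared transcript, and all 50-base stretches of the Snurf sequence (100%) also occur in another gene's transcripts, against 21.7% for Snrpn, so the value of Snurf and its split from Snrpn are uncertain. In female replicate 4 Snurf was at 21.9 and Snrpn at 4.03, whereas in the other female libraries Snurf was at 2.12 and 1.71 and Snrpn at 22.2 and 22.5. Snurf passed (1.87, limma adjusted p 0.0420) and Snrpn did not (-0.01, limma adjusted p 0.984), but without female replicate 4 Snrpn was at 0.73 and passed (limma adjusted p 0.000727). Snurf passed the filter only through the female libraries, was at 3.85 with edgeR, and did not pass without male replicate 5 (1.75, limma adjusted p 0.0939) or male replicate 6 (1.95, limma adjusted p 0.0714). The sum of the pair was steady, at 13.1, 13.8 and 14.2 in the male and 25.9, 24.3 and 24.2 in the female libraries, a ratio of 1.81.

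Mest, also called Peg1, encodes a protein of the hydrolase fold and is read from the paternal copy on chromosome 6. It was at 24.5, 16.2 and 17.7 in the male and 7.10, 9.68 and 12.0 in the female libraries. The lowest male value stood above the highest female one, with a wide spread in both groups. Mest in the female libraries averaged 49.2% of the male mean (9.58 ± 2.44 against 19.5 ± 4.40, SD, n = 3), a log2 difference of -0.96 (SE 0.20, limma adjusted p 0.00265). Its neighbour Copg2, a vesicle coat gene on the opposite strand, covers 32.9% of the Mest exon bases. Since strand in counting is not stated, reads there cannot be assigned with certainty. Copg2 was at 53.1 ± 2.72 against 44.3 ± 2.71 (SD, n = 3), a log2 difference of -0.26 (SE 0.07, limma adjusted p 0.0138), which did not pass without male replicate 6 (-0.22, limma adjusted p 0.0564) or without female replicate 6 (-0.21, limma adjusted p 0.0524). The same limit of strand holds for Cdkn1c, of whose exon bases 30.3% are overlapped by the opposite-strand Gm44732.

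Peg10 and Sgce lie head to head on chromosome 6, with 98 bases between their annotated starts (GENCODE M21, GRCm38), and both are read from the paternal copy. Peg10 derives from a retrotransposon and is needed for the placenta, and Sgce encodes epsilon-sarcoglycan, a membrane protein. Peg10 was at 456, 382 and 415 in the male and 67.2, 83.3 and 122 in the female libraries. The female mean was 21.7% of the male mean (90.7 ± 27.9 against 417 ± 37.2, SD, n = 3), a log2 difference of -2.23 (SE 0.19, limma adjusted p 1.38e-05). Sgce was at 74.1, 72.8 and 73.0 in the male and 50.7, 50.1 and 53.2 in the female libraries, the tightest replicates of the 10 genes. Its female mean was 70.1% of the male mean (51.3 ± 1.67 against 73.3 ± 0.700, SD, n = 3), a log2 difference of -0.51 (SE 0.06, limma adjusted p 9.73e-05).

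The pair thus differed in the same direction by unequal amounts. The ratio of Peg10 to Sgce was 6.16, 5.25 and 5.68 in the male and 1.32, 1.66 and 2.28 in the female libraries, with no overlap. The log2 ratio differed by -1.73 (two-sided exact permutation p 0.1, adjusted over 6 such ratios 0.12), and 0.1 is the smallest p that 3 against 3 libraries allow. These ratios were chosen after the values were seen. Other genes of the domain split: Tfpi2 (2.57), a protease inhibitor, and Pon2 (1.01), a paraoxonase, were higher in log2 terms, whereas Casd1 (-0.42), Ppp1r9a (-0.41), Asb4 (-0.38) and Pon3 (-0.22) were lower. Pon3 did not pass under quantile normalization (-0.17, limma adjusted p 0.0553), or without male replicate 5 (-0.19, limma adjusted p 0.0726), male replicate 6 (-0.21, limma adjusted p 0.0643), female replicate 4 (-0.21, limma adjusted p 0.0614) or female replicate 6 (-0.21, limma adjusted p 0.0537).

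**Figure D2:**
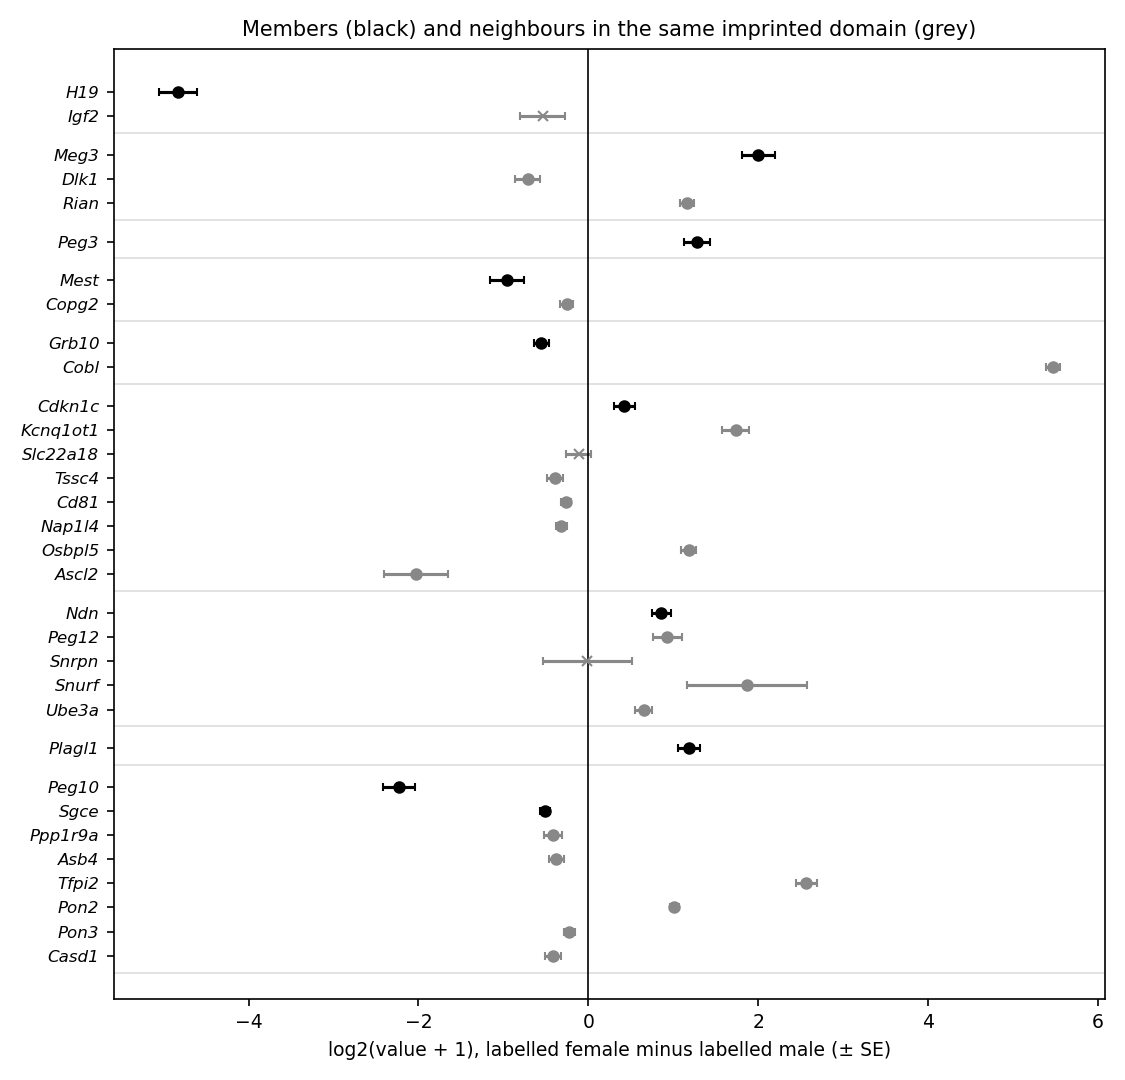
Difference in log2(value + 1), female minus male label, with its standard error, for each imprinted gene (black) and the tested neighbours of its domain (grey); crosses mark genes that did not pass the threshold. Neighbours go both ways, from Cobl at 5.47 to Ascl2 at -2.03.

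**Figure D3:**
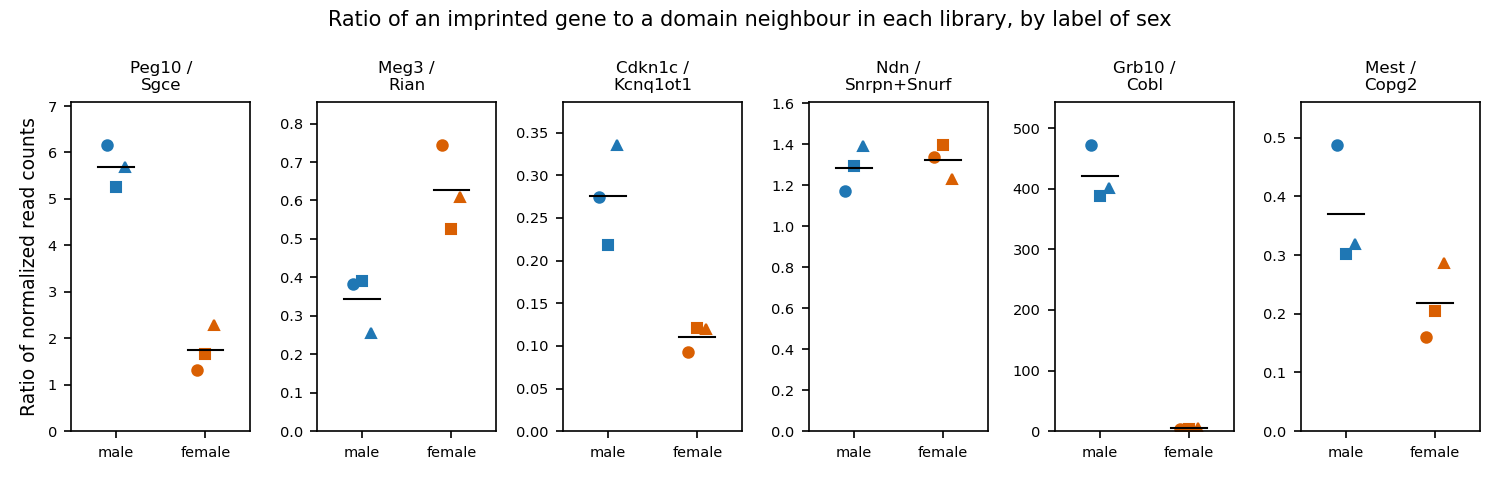
Ratio of the normalized read count of an imprinted gene to that of a neighbour in each library, with symbols for replicates as in the plot of values by library and black lines for means; each axis starts at 0. Peg10 to Sgce has a mean of 5.69 in the male and 1.76 in the female libraries, whereas Ndn to the sum of Snrpn and Snurf is at 1.29 and 1.32.

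The other ratios of a gene to a neighbour are a description only, since 74.1% of single tested genes already separated fully by label and Cobl alone differed 62.4-fold. The ratio of Ndn to Snrpn and Snurf together was 1.29 ± 0.111 against 1.32 ± 0.0827 (SD, n = 3, two-sided exact permutation p 0.6, adjusted 0.6). The ratio of Cdkn1c to Kcnq1ot1 was 0.276 ± 0.0582 against 0.111 ± 0.0159, and that of Meg3 to Rian 0.343 ± 0.0757 against 0.626 ± 0.110 (SD, n = 3). The ratio of Grb10 to Cobl was 421 ± 44.8 against 4.60 ± 0.554, and that of Mest to Copg2 0.369 ± 0.102 against 0.218 ± 0.0644 (SD, n = 3). Each of these 4 had the smallest possible exact permutation p, 0.1 (adjusted 0.12). Of all 22 tested domain neighbours, 9 were higher and 10 lower (69.3% of all tested genes passed), with a median log2 difference of -0.17. Among these, Snurf and Dlk1 passed the filter through 1 label only.

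Compared per kilobase of merged exon (GENCODE M21 lengths), Grb10 had the highest level of the 10 genes under both labels, at 197 ± 21.1 in the male and 134 ± 7.92 in the female libraries (SD, n = 3). In the male libraries Peg10 (62.6), H19 (50.5) and Sgce (39.0) followed, and none of these 4 overlapped its neighbour in the order. Cdkn1c (9.04) and Mest (7.01) overlapped each other. Ndn (4.78) and Plagl1 (2.90) came next, and Peg3 (1.51) and Meg3 (1.38) overlapped at the low end. In the female libraries Sgce (27.3) came second, Peg10 (13.6) and Cdkn1c (12.4) overlapped, as did Plagl1 (6.81) and Meg3 (5.69), and Peg3 (3.78) and Mest (3.45). Ndn was at 8.88, and H19 (1.42) was the lowest, below Mest with no overlap. The lengths do not allow for which isoforms the cells used, and that of Meg3, 15684 bases, merges many isoforms. They come from the basic set of GENCODE M21, where Sgce has 1878 bases. All GENCODE M21 transcripts of Sgce together hold 10887 distinct 50-base stretches, so its place in the order is uncertain.

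**Figure D4:**
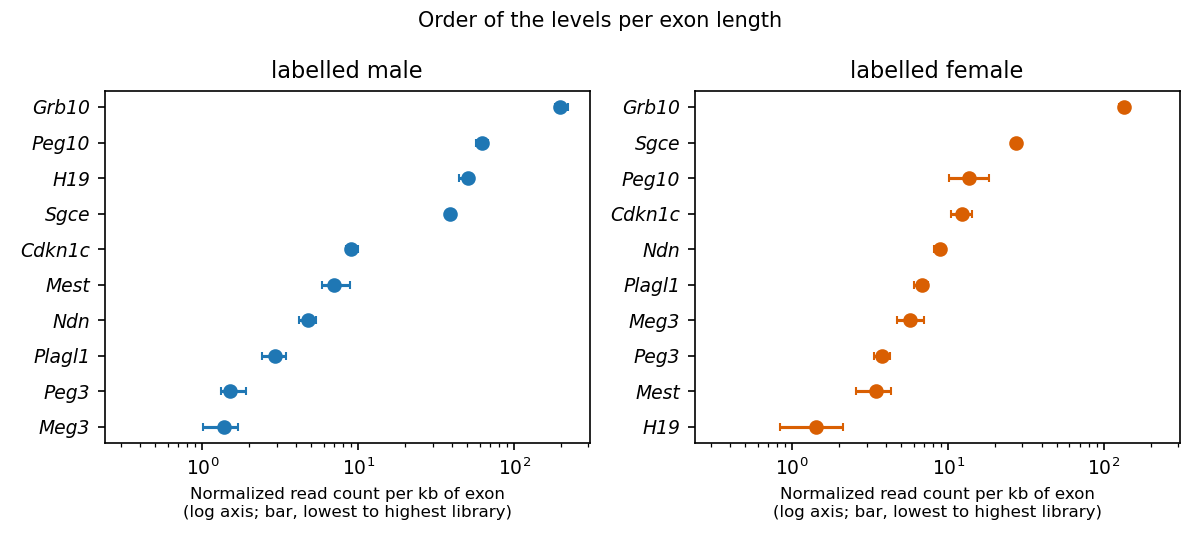
Mean normalized read count per kilobase of merged exon for the 10 genes under each label, on a log axis and ordered by mean, with bars from the lowest to the highest of the 3 libraries. H19 is at 50.5 in the libraries labelled male and, at 1.42, last in those labelled female.

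Imprinted genes of other regions were more often lower than higher. Of 15 tested, 9 were lower and 3 higher, with a median log2 difference of -0.40 (34.6% of all tested genes were lower). The lowest were Dcn (-1.43), a matrix proteoglycan that also marks stromal cells, Rasgrf1 (-1.23), a Ras exchange factor, and Igf2r (-1.23), the receptor that clears IGF2. Rasgrf1 passed the filter only through the male libraries, and with edgeR its difference was -3.63. Igf2r was at 421 ± 85.7 against 176 ± 3.67 (SD, n = 3, limma adjusted p 4.06e-05). The genes called higher were Impact (0.78), a regulator of the amino acid stress kinase GCN2, Peg13 (0.71), a non-coding RNA, and Gnas (0.36), the stimulatory G protein subunit.

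Among 10 genes of insulin and IGF signalling, the pathway that Grb10 restrains, 4 were higher and 5 lower, with a median of -0.60 (69.3% of all tested genes passed). The higher ones were led by the RNA-binding proteins Igf2bp1 (2.47) and Igf2bp3 (2.05) and the receptor substrate Irs1 (2.14). Igf2bp1 passed the filter only through the female libraries, and its difference was 3.35 with a pseudocount of 0.1. The lower ones were led by Igf2r, by the growth factor Igf1 (-1.02) and by the insulin receptor Insr (-0.94). Irs1 was at 6.92 ± 3.19 against 32.5 ± 4.87 (SD, n = 3, limma adjusted p 9.52e-05).

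Among 12 genes of the G1 phase, on which p57 acts, 5 were higher and 5 lower, with a median of 0.21 (69.3% of all tested genes passed). Both relatives of Cdkn1c were lower, Cdkn1b (p27) at 260 ± 24.7 against 50.5 ± 5.41 (SD, n = 3), a log2 difference of -2.34 (limma adjusted p 2.86e-07), and Cdkn1a (p21) with a log2 difference of -1.05 (limma adjusted p 4.58e-06). E2f1 (-0.60), a transcription factor of S phase entry, was also lower. The genes with the largest increases were Cdk6 (1.03), Ccnd2 (0.97) and Ccne1 (0.93), a kinase and cyclins that drive the phase. Ccne1 was at 0.51 without male replicate 4, and did not pass without female replicate 4 (0.94, limma adjusted p 0.0693), 5 (0.90, limma adjusted p 0.0739) or 6 (0.94, limma adjusted p 0.0664). Cdkn1c was thus higher in the libraries in which its relatives were lower, although its own difference was the smallest of the 10.

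In the authors' deposited table, the false discovery rate was below 0.05 for 5 of the 10 imprinted genes (3 of them higher, 2 lower) and for 25.8% of all genes listed. These were H19 and Peg10 as lower and Meg3, Peg3 and Ndn as higher. The fold changes in the authors' deposited table were -35.4 for H19, -4.60 for Peg10, 4.11 for Meg3, 2.51 for Peg3 and 1.86 for Ndn. The false discovery rates there were 0.116 for Plagl1, 0.113 for Grb10, 0.124 for Sgce, 0.423 for Cdkn1c and 0.475 for Mest, all of them called by limma.

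Because male replicate 4 stood apart, the differences were also computed without it. All 10 genes kept their call and direction. The log2 difference was then -4.92 for H19, 2.16 for Meg3, 1.44 for Peg3, 1.31 for Plagl1, -0.79 for Mest and -2.16 for Peg10. Relative to the mean of the other male libraries, male replicate 4 lay at 0.50 in log2 terms for Mest, 0.49 for Peg3 and 0.47 for Meg3, and at -0.28 for Ndn and -0.26 for H19.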

How the data were processed

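Libraries were made from poly(A)-enriched RNA, per the labels' protocols. Bowtie2, RSEM, edgeR and the build mm39 are named in the submitters' processing notes, without their roles. The annotation and the strand setting are not given in the sources used here. Signal values, as deposited, are read counts after normalization by the authors: 100% of the values in each column were whole multiples (tolerance 0.0001 reads) of the smallest value above 0, so the authors divided reads by 1 factor per library. The deposited score is the authors' signed fold change, and the deposited table also holds a p-value and a false discovery rate from the authors. Columns were matched to samples by title.

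Values were modelled as log2(value + 1) with limma (version 3.58.1 under R 4.3.3, moderated variances with a trend) for the 12568 genes that reached 1 in 3 or more libraries, with Benjamini-Hochberg adjustment and a threshold of 0.05. Differences on this scale understate those of weakly read genes. A count test on recovered reads (edgeR 4.0.16) called 8651 genes, DESeq2 1.42.0 called 8558, and the fits were tested on simulated data. Other alternatives were size factors, filters, the pseudocount, quantile normalization, a replicate block and each library left out. The imprinted genes and all lists were chosen with earlier results of these data known. Text names all 10 imprinted genes, every neighbour of their domains in the table, at most 3 called genes per direction, by size, of the other imprinted, signalling, cell cycle and imprint upkeep lists, and fixed markers (Pecam1, Cdh5, Col1a1, Pdgfra, Pdgfrb, Alb, Xist and the Y-linked genes). Same-numbered libraries did not deviate together (correlations -0.09, -0.03 and -0.17), and the labels name no pairing. Because mm39 annotation was not used here, chromosomes and lengths are from GENCODE M21 by symbol, and sequences from RefSeq, both on GRCm38.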

Additional observations from a re-analysis of the deposited data

How the results depend on the processing

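Of 140 values recomputed for the 10 imprinted genes under 14 alternatives, 139 kept direction and call; the exception was Cdkn1c without female replicate 6 (0.33). With the replicate block 8314 genes were called, and 5 imprinted genes were higher and 5 lower, as without it. Leaving out each library gave 7373 to 9113 genes over the table, 4 to 5 imprinted genes higher and 5 lower. Genes of imprint upkeep called higher ran from 2 to 4, with 4 only without male replicate 4. Of 599 values of the other named genes, 580 kept direction and call, 12 lost the call (Pon3, Copg2, Snurf and Ccne1), 1 gained it in the same direction (Igf2 without female replicate 4) and 6 reversed. All 6 were of Snrpn: 0.0467 under quantile normalization, 0.29 with edgeR, 0.30 with DESeq2, 0.0074 without male replicate 5, 0.0035 without male replicate 6 and 0.73 without female replicate 4, where it also gained a call, with a lowest value of -0.3864 without female replicate 6. The cause was not tested. Quantile normalization moved the median of all genes from 0.01 to 0.08. H19 ran from -5.20 to -4.58 over all alternatives. The filter left Mirg, Ddc and Kcnq1 untested, and without it 10 neighbours were called higher in place of 9. The fewest reads behind a library value of the imprinted genes were 43, for H19 in female replicate 5.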

Other observations

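Genes of the imprint upkeep list, which set or keep imprints or, as the Tet genes, oxidize methylated cytosine, were mixed. Of 12 tested, 4 were lower, 2 higher and 6 did not pass (limma, adjusted p under 0.05), where 69.3% of all tested genes passed. Without male replicate 4, 4 were higher. Tet1, an enzyme that oxidizes methylated cytosine, was at 24.5 ± 0.728 against 4.23 ± 0.543 (SD, n = 3), a log2 difference of -2.29 (limma adjusted p 4.77e-07), and its relative Tet2 had a log2 difference of -1.10. Uhrf1 (-0.54), which guides maintenance methylation, was also lower. Zfp57, a zinc-finger protein that protects imprints, was at 10.8 ± 1.34 against 22.1 ± 2.84 (SD, n = 3), a log2 difference of 0.97 (limma adjusted p 0.000176), and Ctcfl, a relative of the insulator protein CTCF, had one of 0.74.

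Zdbf2, an imprinted gene of another region, was below the filter and was picked after its values were seen. Male replicates 4, 5 and 6 had 0, 1 and 1 reads of it, and the female replicates 38, 24 and 21. Against a floor of 3 reads per male library it was at least 10.5-fold higher, a bound that covers counting error only.

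Over the 6 libraries, the genes whose log2(value + 1) most resembled that of H19, among 8888 genes with a mean of at least 10 outside the lists, were Csf2rb, Nelfa, Pomt1, Slc7a8 and Dgat2 (Pearson r from 0.9987 to 0.9998). The 6 points fall into the 2 labels, so r mostly reflects that separation, and no p is given. Csf2rb, a cytokine receptor chain, had means of 46.3 and 1.60 in the male and female libraries, whereas Nelfa, a regulator of transcript elongation, had 32.4 and 24.8.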
